A study of Mus musculus with 8 samples.

Results

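The genes described here are the Zfp series of mouse zinc finger genes as expressed in liver during concanavalin A hepatitis. Members were the rows of the deposited table whose symbol is Zfp followed by a digit, without the CCCH-type RNA-binding genes Zfp36, Zfp36l1 and Zfp36l2, and with 10 or more reads in at least 4 of the 8 libraries. They were thus selected on symbol and read count, and the rule did not name the fold change between the groups. The set was, however, chosen with earlier results of these data known. A gene could also meet the read threshold through the 4 libraries of a single group. Of 21899 genes in the table, 397 carry such a symbol, and 273 of these met the read threshold. Of the 124 that did not, 33 had 0 reads in every library. The name covers a naming series and not a single protein family, although most members encode proteins with C2H2 zinc fingers.

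A C2H2 zinc finger is a short peptide loop folded around a zinc ion, and tandem arrays of such fingers read DNA sequence. In tetrapods the largest class joins the array to a KRAB box, which recruits the corepressor Trim28 (KAP1) and, through it, the histone methyltransferase Setdb1 and heterochromatin proteins. KRAB zinc finger genes multiplied by tandem duplication, lie in chromosome clusters and are known above all for silencing transposable elements. Other members have unrelated roles in the spindle, in ribosome quality control or in splicing.

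Liver RNA was taken 8 h after concanavalin A (ConA), a lectin that activates T cells and injures the mouse liver, from 4 P2X4R-deficient and 4 wild-type samples. P2X4R is an ion channel opened by extracellular ATP. The labels call the deficient genotype a knockdown and the series text calls it P2X4R-/-. All 8 samples received ConA, and the labels give no strain, sex or age and do not say whether libraries came from separate animals, so p-values measure the spread between these samples. Libraries are named by group and the number in their titles. They held 15445285 to 16604190 reads.

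P2rx4, the targeted gene (ENSMUSG00000029470), fell in the deficient libraries without reaching 0. Its level was 17.3, 24.9, 27.0 and 29.6 CPM (read counts per library total after TMM scaling) in deficient libraries 1 to 4 and 43.8, 62.4, 59.7 and 57.6 CPM in wild-type libraries 1 to 4. The groups did not overlap, and the log2 fold change was -1.18 (SE 0.19, adjusted p = 0.00481 by edgeR's quasi-likelihood test with Benjamini-Hochberg adjustment over all genes tested). Hepatocyte markers dominated all libraries, with summed levels of 85112 to 111772 CPM in the deficient and 109955 to 129340 CPM in the wild-type group, and 0 of 5 passed the test in edgeR. Neutrophil markers summed to 74.5 to 149 CPM against 20.5 to 83.2 CPM, and 2 of 5 tested rose. Kupffer cell markers summed to 24.5 to 29.9 CPM against 28.7 to 101 CPM with 3 of 6 lower, stellate cell markers to 75.9 to 141 CPM against 131 to 201 CPM with 3 of 6 lower, and cholangiocyte markers to 43.4 to 152 CPM against 194 to 234 CPM with 1 of 5 lower. Endothelial markers gave 42.9 to 67.9 CPM against 36 to 91.4 CPM with 1 of 6 lower, T and NK cell markers 4.04 to 6.09 CPM against 2.97 to 5.38 CPM, and B cell markers 0.373 to 1.16 CPM against 0.0659 to 2.59 CPM. Beside these counts, 9.27% of all genes tested were higher and 10.6% lower. No listed marker found in the table was at 0 in every library. The part of these marker differences in the values of the zinc finger genes was not tested. In whole liver fewer cells of a type cannot be told apart from less RNA per cell.

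Promoter sequences are shown for 5 of the members described below. Zfp709, Zfp617 and Zfp961 are neighbours and form the only chromosome cluster in which every member passed the test, Zfp825 had the largest rise, and Zfp207 rose at a higher level than most. Each line gives the 250 bases before the first listed transcription start, 5′ to 3′ on the gene's strand, from RefSeq on GRCm38.p6. The intervals are chr8:71881818-71882067 for Zfp709, chr8:71922575-71922824 for Zfp617, chr8:71950816-71951065 for Zfp961 (all + strand), chr13:74493962-74494211 for Zfp825 (- strand) and chr11:80383029-80383278 for Zfp207 (+ strand). Capitals mark matches on either strand to CCAAT (the CCAAT box), CCGGAAG (an ETS-type site) or AAGATGG (a YY1-type site).
Zfp709: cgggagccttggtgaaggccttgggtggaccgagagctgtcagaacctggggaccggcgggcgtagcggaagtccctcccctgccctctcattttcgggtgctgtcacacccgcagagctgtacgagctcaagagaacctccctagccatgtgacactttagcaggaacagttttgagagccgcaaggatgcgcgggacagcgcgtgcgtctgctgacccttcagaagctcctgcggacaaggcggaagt
Zfp617: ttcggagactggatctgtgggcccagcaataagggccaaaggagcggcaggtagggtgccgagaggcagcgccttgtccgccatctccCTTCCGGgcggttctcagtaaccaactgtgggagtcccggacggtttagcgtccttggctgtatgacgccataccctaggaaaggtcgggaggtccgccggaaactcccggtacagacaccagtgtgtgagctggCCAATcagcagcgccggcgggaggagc
Zfp961: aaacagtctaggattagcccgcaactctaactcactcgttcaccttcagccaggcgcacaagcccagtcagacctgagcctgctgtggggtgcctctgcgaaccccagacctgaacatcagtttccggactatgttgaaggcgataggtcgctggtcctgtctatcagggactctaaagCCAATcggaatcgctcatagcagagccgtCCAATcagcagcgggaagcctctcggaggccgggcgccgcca
Zfp825: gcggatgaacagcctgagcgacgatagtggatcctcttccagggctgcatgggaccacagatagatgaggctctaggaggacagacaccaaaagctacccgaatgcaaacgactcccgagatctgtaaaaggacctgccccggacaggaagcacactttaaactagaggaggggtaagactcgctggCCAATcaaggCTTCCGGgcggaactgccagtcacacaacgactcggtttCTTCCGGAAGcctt
Zfp207: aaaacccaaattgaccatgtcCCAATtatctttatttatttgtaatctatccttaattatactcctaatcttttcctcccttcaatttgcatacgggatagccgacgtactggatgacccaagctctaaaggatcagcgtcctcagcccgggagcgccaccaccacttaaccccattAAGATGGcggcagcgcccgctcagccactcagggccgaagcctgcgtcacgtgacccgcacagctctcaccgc

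The last run of capitals in Zfp825 is an ETS-type match on both strands that overlap. Zfp617 and Zfp961, which are neighbours, both carry a CCAAT match, and Zfp709 carries none of the marked motifs in these 250 bases. RefSeq promoter windows of 300 bases, 250 before to 50 after the start, were found for 231 of the 273 members. CCAAT occurred in 48.9% of these windows, in 37.9% of all 27025 windows in the table and in 39.0% of the windows of the genes tested. The ETS-type match occurred in 21.6% of member windows, 9.12% of all windows and 18.7% of those of genes tested. The YY1-type match occurred in 7.79% of member windows, 6.48% of all windows and 7.47% of those of genes tested. A ZNF143-type match, ACTACAA, stood in 7.36% of member windows, 3.45% of all and 4.62% of those of genes tested. The TATA box, TATAAA, stood in 5.19%, 14.2% and 7.58% of them. These are descriptions of letters within a window, searched on both strands, and do not show that a factor binds.

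The members as a group were higher in the P2X4R-deficient livers. Of 273 members, 267 passed edgeR's expression filter, and 49 of these rose while 7 fell. In all 11380 genes tested, the share past the threshold was 19.9%, with 9.27% higher and 10.6% lower in the deficient group, whereas 18.4% of members were higher and 2.62% lower. The fitted log2 fold change was above 0 for 213 of 267 members, or 79.8%, against 49.9% of all genes. The median log2 fold change of members was 0.44, with quartiles of 0.07 and 0.79, and that of all genes was -0.00, with quartiles of -0.37 and 0.37. The remaining 211 members did not pass the test. At an unadjusted p under 0.05 there were 92 higher and 11 lower members. Of the calls, 28 rises and 2 falls were at least 2-fold, and 43 rises and 5 falls had no overlap in CPM between the groups. Over all tested members, 65 lay above with no overlap and 6 below, beside 12.7% and 12.3% of all genes tested.

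**Figure D1:**
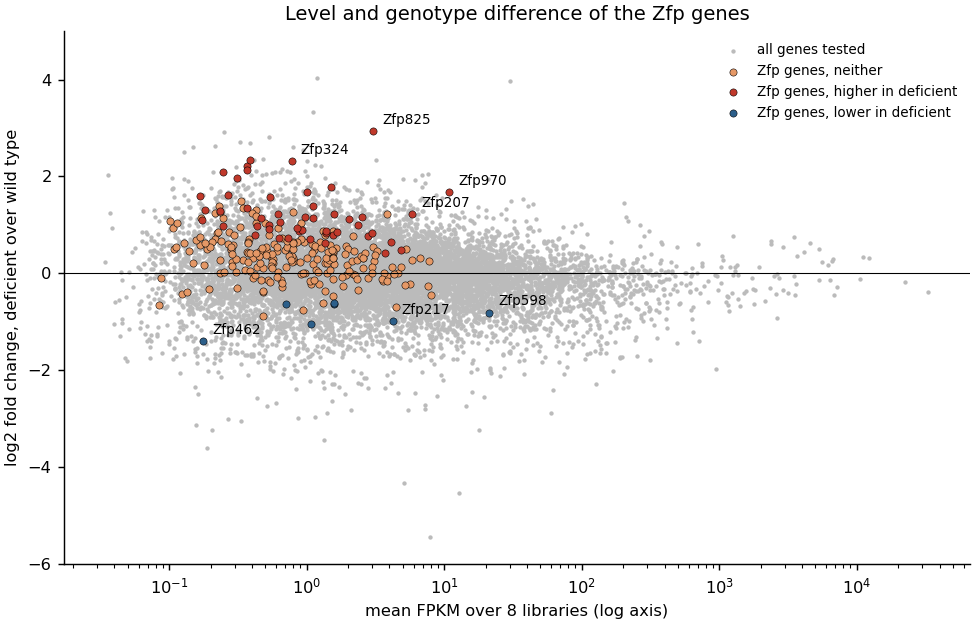
Log2 fold change, deficient over wild type (y axis), of each gene tested against its mean FPKM over the 8 libraries on a log axis (x axis). Grey points are all genes tested and coloured points the Zfp members, of which the 49 red ones are higher and the 7 blue ones lower, with most members above 0.

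Plain read totals separated the groups in the same way. Member genes received 32779, 31918, 34502 and 35581 reads in deficient libraries 1 to 4 and 26227, 24469, 24819 and 28872 reads in wild-type libraries 1 to 4. As CPM of the plain library total, before any scaling for composition, this was 2122, 1998, 2148 and 2143 in the deficient and 1659, 1577, 1512 and 1780 in the wild-type libraries. All deficient libraries therefore lay above all wild-type libraries, and wild-type library 4 was the nearest of its group to the deficient ones. After TMM scaling the summed levels were 1978, 1983, 1996 and 2044 CPM against 1660, 1720, 1637 and 1850 CPM.

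The shift was spread over many members and was not the property of a single library. Taken per library, the median deviation of members, as log2(CPM + 0.5), from their own mean over the 8 libraries was 0.22, 0.15, 0.21 and 0.17 in deficient libraries 1 to 4, and -0.24, -0.13, -0.24 and -0.05 in wild-type libraries 1 to 4. The same median over the other genes stayed between -0.01 and 0.02. In each deficient library 185 to 194 of the 267 members stood above their own mean, and in each wild-type library 61 to 113. Deficient library 1 was the highest of the 8 for 64 members and deficient library 3 for 58, whereas wild-type library 2 was the highest for 11. Wild-type libraries 1 and 3 were the lowest for 71 and 67 members.

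**Figure D2:**
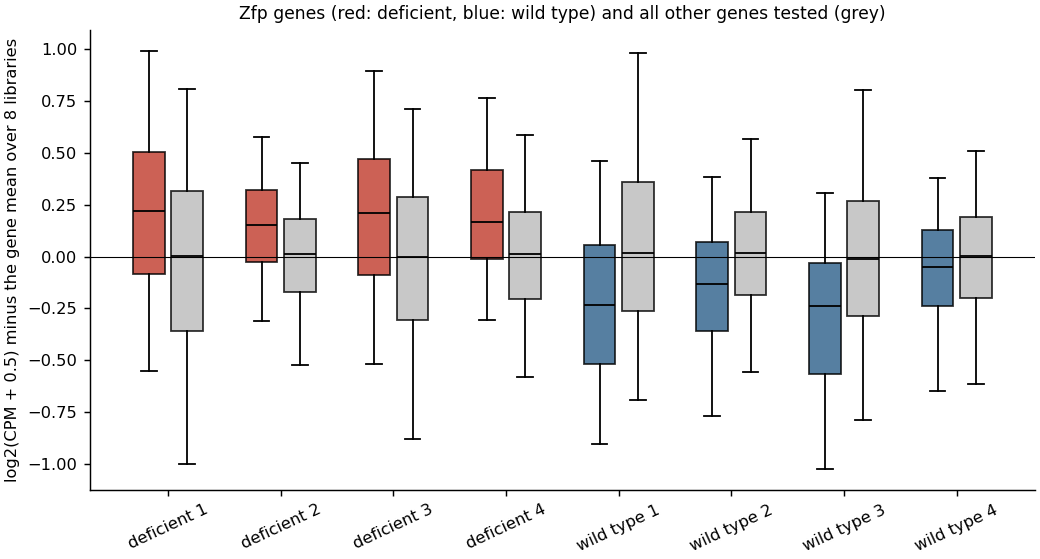
Log2(CPM + 0.5) minus the mean of the same gene over 8 libraries (y axis), by library (x axis), for the Zfp members (red in deficient and blue in wild-type libraries) and all other genes tested (grey). Boxes give quartiles and the median and whiskers the outer percentiles (5 and 95), and the medians of members are 0.15 to 0.22 in the deficient and -0.24 to -0.05 in the wild-type libraries, while those of other genes stay near 0.

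The number of calls depended on single libraries more than the median did. Without deficient library 1, 3 or 4 the higher members numbered 27, 18 and 28, and without wild-type library 3 they numbered 14. These were 10.1%, 6.67%, 10.4% and 5.15% of the members tested, beside 6.09%, 4.97%, 6.42% and 3.91% of all genes tested. The excess of rises over all genes was thus small without deficient library 3 or wild-type library 3. Lower members numbered 1 without deficient library 1, 1 without wild-type library 1, 3 or 4, and 0 without deficient library 3 (10 lower at an unadjusted p under 0.05, edgeR). Of all genes tested, 6.81%, 9.14%, 4.54%, 7.66% and 5.61% were lower in these fits, in the same order. The median log2 fold change stayed between 0.40 and 0.49 in these fits. Scaled to library size alone, 77 members were higher and 1 lower with a median of 0.59, but that scaling also moved the median of all genes to 0.14. It called 28.8% of members higher and 0.375% lower, beside 15.2% and 7.41% of all genes tested. In limma on log2(FPKM + 1), whose values are also scaled to the library total, 53 of 173 members were higher and 1 lower. This was 30.6% and 0.578% of members, beside 16.6% and 8.43% of all genes tested.

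The read threshold itself could favour genes that are high in a single group. Zfp820, Zfp791, Zfp94 and Zfp712 reached it through all 4 deficient libraries and none of the wild-type ones, so they had to differ. Of these, Zfp820 and Zfp94 were tested and called higher, which is no support for a shift. Zfp820 had a log2 fold change of 1.31 (adjusted p = 0.0486) and did not pass with any single library left out (adjusted p = 0.0633 to 0.135). Without them 265 members were tested, 47 were higher and 7 lower, and the median stayed at 0.44. Other called members also met the threshold only with the help of the deficient group. Zfp93, Zfp661 and Zfp438 had 10 reads in all 4 deficient libraries but in 1 wild-type library. Zfp866 had them in 2 wild-type libraries, and Zfp825, Zfp60, Zfp750, Zfp874b, Zfp626 and Zfp563 in 3. With the stricter demand of 10 reads in all 8 libraries, 213 members remained, of which 37 were higher and 7 lower, with a median of 0.36. This was 17.4% and 3.29% of them, beside 9.27% and 10.6% of all genes tested. Zfp651, Zfp791, Zfp503, Zfp712 and Zfp94 lay just inside the threshold, and Zfp354a, Zfp57, Zfp667, Zfp974 and Zfp296 just outside. Zfp57, a KRAB protein that keeps the methylation of imprinted regions, had 8, 2, 9 and 17 reads in the deficient and 21, 6, 9 and 1 in the wild-type libraries. Zfp354a had 17, 6, 21 and 9 against 6, 5, 10 and 5 reads. Just inside, Zfp791 had 14, 14, 14 and 10 against 1, 4, 1 and 4 reads. Zfp651, Zfp503, Zfp763, Zfp791, Zfp712 and Zfp963 met the threshold but not edgeR's filter.

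Zfp825, a KRAB zinc finger gene (ENSMUSG00000069208, listed at chr13:74628173-74642111 in a build that is not given in the sources used here), had the largest rise of the members called without overlap. Its level was 11.5, 4.72, 5.84 and 9.88 CPM in the deficient and 1.2, 1.27, 0.264 and 1.41 CPM in the wild-type libraries. The lowest deficient library was above the highest wild-type library. The means were 7.99 ± 3.23 and 1.04 ± 0.522 CPM (SD, n = 4 each), a log2 fold change of 2.94 (SE 0.44, adjusted p = 0.00419). In limma on log2(FPKM + 1) the value was 1.93, since the added 1 compresses low values. Of its transcript sequence, 30.4% also occurs in other genes, so its count is uncertain.

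Zfp93 and Zfp324, both KRAB genes on chromosome 7, followed. Zfp93 (ENSMUSG00000055305, chr7:23969845-23977219) measured 2.35, 1.80, 3.12 and 1.78 CPM in the deficient and 0.127, 0.422, 0.264 and 0.961 CPM in the wild-type libraries. Wild-type library 4 was the highest of its group. The log2 fold change was 2.33 (SE 0.51, adjusted p = 0.0123), and 3.06 without wild-type library 4, with 31.3% of its sequence shared with other genes. Zfp324 (ENSMUSG00000004500, chr7:12699765-12708163) measured 8.63, 2.36, 9.08 and 3.62 CPM against 0.823, 1.27, 0.659 and 1.99 CPM. Deficient libraries 1 and 3 were well above 2 and 4, and all 4 were above the wild-type range. Its log2 fold change was 2.32 (SE 0.49, adjusted p = 0.0106).

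Zfp950 and Zfp661 are also KRAB genes. Zfp950 (ENSMUSG00000074733, chr19:61042278-61129278) measured 10.3, 2.67, 3.82 and 7.53 CPM in the deficient and 1.77, 0.703, 1.45 and 1.60 CPM in the wild-type libraries. Its groups did not overlap, and the log2 fold change was 2.13 (SE 0.44, adjusted p = 0.0103), for a gene that overlaps another in the annotation. Zfp661 (ENSMUSG00000034800, chr2:127416582-127429014) measured 2.35, 1.24, 2.60 and 1.72 CPM against 0.886, 0.281, 0.198 and 0.449 CPM. Here too all deficient libraries were higher, with a log2 fold change of 2.10 (SE 0.48, adjusted p = 0.0141).

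Zfp213 and Zfp970 rose with smaller standard errors. Zfp213 (ENSMUSG00000071256, chr17:23775741-23783212) measured 8.21, 3.85, 6.77 and 5.52 CPM against 1.52, 1.76, 1.25 and 2.50 CPM, a log2 fold change of 1.79 (SE 0.31, adjusted p = 0.00599). In limma on log2(FPKM + 1) this was 1.04. Zfp970 (ENSMUSG00000078866, chr2:177156526-177169922) was the most abundant of these rises per length, at 17 FPKM on average in the deficient and 4.79 FPKM in the wild-type group. It measured 49.7, 14.4, 36.2 and 38.7 CPM against 12.1, 10.9, 8.77 and 11.9 CPM, so that deficient library 2 was much nearer to the wild-type range than the other deficient libraries. The log2 fold change was 1.67 (SE 0.30, adjusted p = 0.00664), but 73.1% of its sequence occurs in other genes and its count is uncertain.

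The other 5 of the 12 largest rises without overlap were Zfp60, Zfp750, Zfp438, Zfp94 and Zfp874b, with log2 fold changes of 1.96, 1.68, 1.62, 1.59 and 1.58 and adjusted p-values of 0.0424, 0.0193, 0.0179, 0.0407 and 0.0271. Each of these calls was lost when some library was left out. For Zfp60 these were deficient libraries 1, 3 and 4 and wild-type libraries 3 and 4 (adjusted p = 0.0569 to 0.106). For Zfp750 it was deficient library 3 (adjusted p = 0.0575), and it measured 0.82 in limma on log2(FPKM + 1). For Zfp438 the libraries were deficient 3 and wild type 3 (adjusted p = 0.0556 and 0.0589). Zfp874b, with 22.4% shared sequence, lost its call on omission of deficient libraries 3 and 4 and wild-type libraries 1, 3 and 4, each in turn (adjusted p = 0.0594 to 0.078). Zfp94 lost it on omission of deficient libraries 1, 3 and 4 and wild-type libraries 1, 2 and 3, each in turn (adjusted p = 0.0668 to 0.115), and in the fit with no expression filter (adjusted p = 0.0789).

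**Figure D3:**
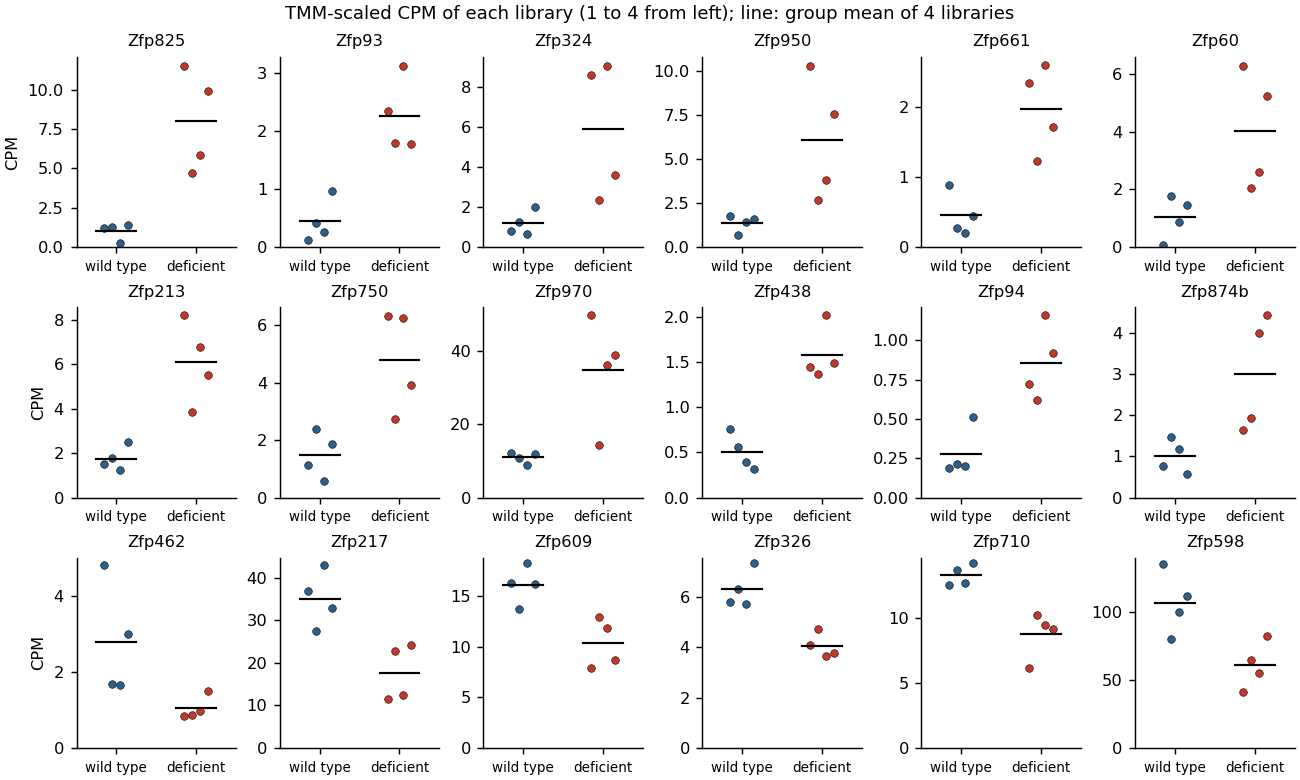
TMM-scaled CPM (y axis, linear from 0) of 18 called members, with 1 point per library (1 to 4 from the left) and a line at the group mean. In the upper 12 panels all red deficient points lie above all blue wild-type points, in the lower row they lie below, and Zfp598 is the panel in which the groups overlap.

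In all, 13 rises passed the test with each of the 8 libraries left out in turn: Zfp324, Zfp790, Zfp207, Zfp661, Zfp768, Zfp219, Zfp260, Zfp93, Zfp512, Zfp825, Zfp213, Zfp950 and Zfp970. Among them, Zfp93 and Zfp661 had 10 reads in 1 wild-type library and Zfp825 in 3, so the read threshold favoured their rise. Zfp790, Zfp219 and Zfp512 are named after their values were seen. Zfp790 measured 1.39 (adjusted p = 0.0119), Zfp219 1.23 (adjusted p = 0.0146) and Zfp512 1.22 (adjusted p = 0.0121) on the log2 scale. In limma on log2(FPKM + 1) Zfp790 and Zfp512 measured 0.76 and 0.49. Zfp219 overlaps another gene in the annotation, and its highest wild-type library, at 5.70 CPM, exceeded its lowest deficient library, at 5.28 CPM. None of the 56 called members changed direction under any setting that gave a value.

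Among members with a known individual role, Zfp207 gave the clearest rise. Zfp207 (BuGZ, ENSMUSG00000017421, chr11:80274105-80296559) is a spindle assembly protein that protects the checkpoint protein Bub3. It measured 61.2, 33.9, 64.6 and 53.4 CPM in the deficient and 20.8, 23.7, 22.5 and 24.8 CPM in the wild-type libraries. The wild-type values lay close together, the deficient ones were all higher, and the log2 fold change was 1.22 (SE 0.20, adjusted p = 0.00481), from 23.0 ± 1.71 to 53.3 ± 13.7 CPM.

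Zfp638, an RNA-binding protein that silences unintegrated retroviral DNA, measured 19.6, 14.8, 13 and 23.6 CPM against 10.8, 7.66, 9.63 and 10.8 CPM. Its groups did not overlap, with a log2 fold change of 0.87 (SE 0.21, adjusted p = 0.0181), but the call was lost without deficient library 4 (adjusted p = 0.0509) or wild-type library 3 (adjusted p = 0.0517). Zfp809, a KRAB protein that silences proviruses of murine leukaemia virus, measured 8.69, 12.6, 11.6 and 11.4 CPM against 4.94, 5.55, 6.07 and 8.33 CPM. The highest wild-type library stayed under the lowest deficient one, and the log2 fold change was 0.83 (SE 0.21, adjusted p = 0.0201). Without deficient library 3 or wild-type library 3 the adjusted p was 0.0505 and 0.0604. Zfp445, a KRAB protein that keeps the methylation of imprinted regions, measured 28.7, 32.1, 34.7 and 29.1 CPM against 22.7, 23.3, 23.1 and 24.5 CPM. These groups did not overlap either, yet the difference was small, at 0.41 (SE 0.13, adjusted p = 0.0472), and it did not pass with any single library left out (adjusted p = 0.0559 to 0.117).

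Only 7 members fell, and none of these calls passed with each library left out in turn. Of the 49 rises 13 did, so most rises also lost their call in some such fit. Zfp598, the ubiquitin ligase that senses collided ribosomes, was the most abundant member per length, with a mean of 21.3 FPKM. It measured 40.9, 64.7, 55.0 and 82.4 CPM in the deficient and 135, 80.2, 99.7 and 112 CPM in the wild-type libraries. Deficient library 4 was above wild-type library 2, so the groups overlapped. The log2 fold change was -0.81 (SE 0.23, adjusted p = 0.0276), and the call was lost on omission of any of deficient libraries 1 and 3 and wild-type libraries 1, 3 and 4 (adjusted p = 0.0573 to 0.0739), scaled to library size alone (adjusted p = 0.0514) or in limma on FPKM (adjusted p = 0.0550 and 0.0559).

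Zfp462 and Zfp217 were the largest falls without overlap. Zfp462, the member with the most fingers at 33, measured 0.845, 0.870, 0.983 and 1.49 CPM against 4.81, 1.69, 1.65 and 3.01 CPM, a log2 fold change of -1.41 (SE 0.42, adjusted p = 0.0346). The wild-type libraries were widely spread, and the call was lost without deficient library 1, 2 or 3 or wild-type library 1 or 4 (adjusted p = 0.0689 to 0.0889), and narrowly with library size alone (adjusted p = 0.0525) and limma-voom (adjusted p = 0.0523). Zfp217 measured 11.6, 22.7, 12.4 and 24.2 CPM against 36.8, 27.6, 43.1 and 32.9 CPM, a log2 fold change of -0.99 (SE 0.25, adjusted p = 0.0202). Deficient libraries 1 and 3 were the lowest, and the call was lost without deficient library 3 (adjusted p = 0.058) or wild-type library 3 (adjusted p = 0.0654).

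Zfp609, Zfp326 and Zfp710 fell by smaller amounts, with log2 fold changes of -0.64, -0.64 and -0.60 and adjusted p-values of 0.0383, 0.0459 and 0.0408. Zfp326, a subunit of a complex linking transcription and splicing, measured 4.10, 4.72, 3.64 and 3.79 CPM against 5.82, 6.33, 5.74 and 7.37 CPM. The groups did not overlap for any of the 3, but none of them passed with library size alone (adjusted p = 0.082 for Zfp609, 0.101 for Zfp326 and 0.0895 for Zfp710). Zfp326 and Zfp710 passed in 1 of the 8 fits with a library left out, and Zfp609 in 2, with adjusted p-values reaching 0.134, 0.0952 and 0.11. Zfp945, the KRAB gene among the falls, measured 4.71, 7.39, 4.05 and 12.9 CPM against 19.7, 15.3, 11.9 and 13.3 CPM. Deficient library 4 lay within the wild-type range, and the log2 fold change of -1.05 (SE 0.33, adjusted p = 0.0416) passed in 1 of the 8 such fits (adjusted p up to 0.0997) and did not pass with library size alone (adjusted p = 0.0632).

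After Zfp598 and Zfp970, the highest mean levels per length were those of Zfp281, Zfp110 and Zfp706, and none of these 3 passed the test. Zfp281, a factor that binds GC-rich promoters, had a mean of 8.04 FPKM and a log2 fold change of -0.45 (SE 0.20, adjusted p = 0.131). Without deficient library 2, the highest of the deficient group at 48.8 CPM, the value was -0.68 (adjusted p = 0.0177). Zfp110 measured 34.9 ± 1.91 against 29.2 ± 7.28 CPM, a log2 difference of 0.26 (adjusted p = 0.333), and Zfp706 34.9 ± 2.82 against 41.8 ± 3.36 CPM, a log2 difference of -0.26 (adjusted p = 0.202).

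Members were divided by what their proteins carry. A KRAB box was assigned to 135 members by the table's own annotation and to 119 by a match in the translated coding sequence, to 100 by both and to 154 by either. The 119 with neither may still include KRAB genes. Of 150 KRAB members tested, 27 were higher and 1, Zfp945, was lower, 128 had a fold change above 0 and the median was 0.52. Of the 117 others tested, 22 were higher and 6 lower, 85 were above 0 and the median was 0.30. The shares called higher were 18% and 18.8%, beside 9.27% of all genes tested, and the shares lower 0.667% and 5.13%, beside 10.6%. The shares higher depended on the scaling. Library size alone gave 48 KRAB members and 29 others higher, beside 15.2% of all genes tested. The median was larger in the KRAB members than in the others in every fit of the 273 members, at 0.29 to 0.67 against 0.22 to 0.45. The difference between both sets was not tested. Higher KRAB members numbered 13, 8, 15, 16 and 7 without deficient library 1, 3 or 4 or wild-type library 1 or 3. Of all genes tested, 6.09%, 4.97%, 6.42%, 7.29% and 3.91% were higher in these fits, in the same order. The excess of KRAB rises over all genes was thus small without deficient library 3 or wild-type library 3. The other members called higher numbered 14, 10, 13 and 7 without deficient library 1, 3 or 4 or wild-type library 3.

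The median log2 fold change also rose with the number of fingers, whereas the share called higher was largest in members with the fewest. Counted by their spacing of cysteines and histidines in the translated sequence, members held 0 to 33 fingers with a median of 10, and a median of 12 in KRAB members against 7 in the others. The 65 tested members with 0 to 6 fingers had a median log2 fold change of 0.30, with 15 higher and 3 lower. Those with 7 to 12 fingers (124 tested) had a median of 0.36, with 21 higher and 2 lower. Those with 13 or more (78 tested) had a median of 0.58, with 13 higher and 2 lower. The shares higher were 23.1%, 16.9% and 16.7% in this order, beside 9.27% of all genes tested. The shares lower were 4.62%, 1.61% and 2.56%, beside 10.6%. Fingers, the KRAB box and low level go together in these genes, and their separate shares were not tested. Among 14 tested genes that the table annotates with the KRAB group but under other names, a set chosen after the data were seen, E430018J23Rik rose (log2 fold change 0.80, adjusted p = 0.0474) and the median was 0.41.

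Members lay on 20 chromosomes, most of them on chromosomes 7 (62 members), 17 (41), 13 (24) and 8 (19). Joining neighbours whose starts lie within 500 kb gave 19 clusters of 3 or more, which held 132 members. Of the 129 tested within clusters, 25 were higher and 1 was lower, 114 were above 0 and the median was 0.54. Of the 138 tested outside, 24 were higher and 6 lower, 99 were above 0 and the median was 0.30. Other genes tested within the same spans numbered 48, of which 7 were higher and 4 lower, with a median of 0.15. The shares higher were 19.4% within, 17.4% outside and 14.6% of the other genes, beside 9.27% of all genes tested. The shares lower were 0.775%, 4.35% and 8.33% in this order, beside 10.6%. Most clustered members carry a KRAB box, and the separate shares of position and protein type were not tested. Higher members within clusters numbered 12, 9, 13 and 6 without deficient library 1, 3 or 4 or wild-type library 3. Those outside numbered 15, 9, 15 and 8 in the same fits and 15 without wild-type library 2. Of all genes tested, 6.09%, 4.97%, 6.42%, 3.91% and 6.69% were higher in these fits, in the same order. With library size alone, 43 were higher within and 34 outside, beside 15.2% of all genes tested.

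**Figure D4:**
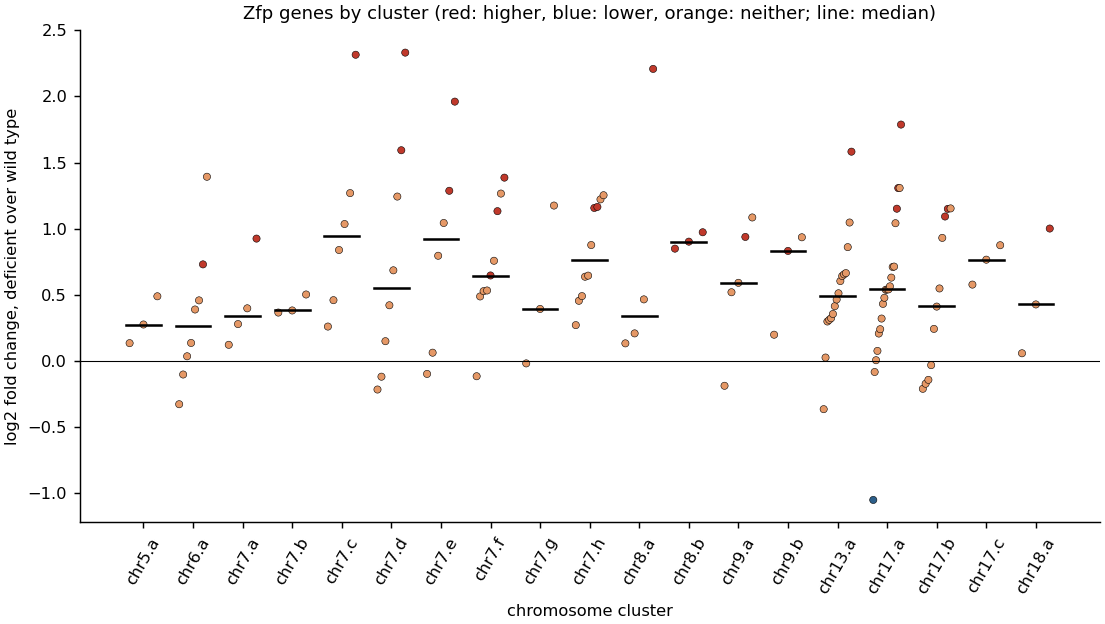
Log2 fold change, deficient over wild type (y axis), of each tested member in the 19 chromosome clusters (x axis, named by chromosome and a letter in order of position). Red points passed the test as higher, blue as lower and orange neither, and the lines mark the cluster medians, all of which lie between 0.26 and 0.94.

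The median fold change was above 0 in each of the 19 clusters, from 0.26 in the chromosome 6 cluster to 0.94 in a cluster of 6 members at chr7:12212220-12719641. The largest, 21 members at chr17:21229165-23818461, had 3 higher (Zfp213, Zfp53 and Zfp820) and 1 lower (Zfp945), with 19 above 0 and a median of 0.54. Its members ranged from -1.05 to 1.79, so they did not move as a block. The 17 members at chr13:67186660-67903347 had a median of 0.49 with 15 of 16 tested above 0, but Zfp874b alone passed. In the chromosome 7 group at chr7:126832233-127485168 all 10 members were above 0, with a median of 0.76, and Zfp768 and Zfp553 passed. The neighbours there moved as well, since 6 of 16 other genes rose and their median was 0.38. Zfp768 measured 8.69 ± 1.08 against 3.9 ± 1.22 CPM, a log2 fold change of 1.16 (SE 0.25, adjusted p = 0.0112). In the cluster of 9 members at chr7:29467977-29869175 Zfp260, Zfp790 and Zfp146 rose, with Zfp260 at 15.8 ± 3.93 against 7.23 ± 1.98 CPM (log2 fold change 1.13, SE 0.24, adjusted p = 0.0109).

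The 3 neighbours at chr8:72635863-72747636, whose promoters are printed above, all passed and were similar in size of change. Zfp709 measured 2.59, 2.55, 2.37 and 2.70 CPM in the deficient and 1.2, 1.27, 1.06 and 1.67 CPM in the wild-type libraries, Zfp617 8.27, 4.47, 6.13 and 6.55 CPM against 4.05, 3.52, 2.37 and 4.17 CPM, and Zfp961 7, 4.47, 5.44 and 3.73 CPM against 1.90, 3.45, 2.44 and 3.27 CPM. None of the 3 overlapped between groups, although Zfp617 and Zfp961 came close. Their log2 fold changes were 0.97, 0.85 and 0.90, with adjusted p-values of 0.037, 0.04 and 0.0453. Each passed in 1 of the 8 fits with a library left out, with adjusted p-values of up to 0.108, 0.111 and 0.126. Zfp617 shares 50.5% of its sequence with other genes, and Zfp617 and Zfp961 overlap another gene in the annotation, so their counts are uncertain.

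In the remaining clusters of 4 or more, the member with the smallest p was often a call near the threshold. Zfp866 on chromosome 8 had a log2 fold change of 2.21 (SE 0.62, adjusted p = 0.0293) with overlapping groups, lost on omission of any of deficient libraries 1, 3 and 4 and wild-type library 3 (adjusted p = 0.0563 to 0.0849). Zfp426 on chromosome 9 measured 0.94 (adjusted p = 0.0237), lost on omission of any of deficient libraries 3 and 4 and wild-type library 3 (adjusted p = 0.0595 to 0.0731). Zfp865 on chromosome 7 measured 0.92 (adjusted p = 0.0299), lost on omission of any of deficient libraries 1, 3 and 4 and wild-type libraries 3 and 4 (adjusted p = 0.0559 to 0.0872). Zfp626 (chromosome 7), Zfp282 (chromosome 6) and Zfp563 (chromosome 17) measured 1.29, 0.73 and 1.09 with adjusted p-values of 0.0412, 0.0419 and 0.0411. Zfp626 and Zfp282 passed in 1 of 8 fits with a library left out, and Zfp563 in none of them (adjusted p from 0.0622 to 0.102). Zfp866 had 10 or more reads in 2 wild-type libraries and Zfp626 and Zfp563 in 3, so the read threshold favoured their rise.

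Members were expressed at low levels. Their mean FPKM ran from 0.0677 to 21.3 with a median of 0.746, against a median of 2.67 over all genes tested, and 162 of the 273 were under 1 FPKM. All genes tested were cut into tertiles at 1.35 and 5.62 FPKM. In the low tertile, 31 of 178 members were higher and 3 lower with a median of 0.52, beside 8.44% and 5.67% of all genes there. In the middle tertile 16 of 80 were higher and 3 lower with a median of 0.31, beside 11.9% and 9.15%. In the high tertile, which held 9 members, 2 were higher and 1 lower with a median of 0.26, beside 7.51% and 17.1%. All genes in the low, middle and high tertiles had medians of 0.11, 0.03 and -0.1, which also fell with level.

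Rises occurred at similar rates in short and long members, whereas 6 of the 7 falls were in the long tertile and 1 in the middle one. The gene length in the table ran from 1258 to 19017 bases with a median of 4868. With cuts at 3359 and 5940 bases, 12 of 65 short, 19 of 106 middle and 18 of 96 long members were higher, beside 10.9% of all short genes, 380 of 3790 middle ones and 6.88% of all long ones, and their medians were 0.45, 0.51 and 0.37. All genes in those tertiles had medians of 0.03, 0.03 and -0.06, and 10.4%, 9.71% and 11.8% of them were lower. Transcript GC had a median of 44.1% in members and 49.6% in all genes tested. In the GC-poor tertile, below 46.5%, 29 of 159 members were higher and 2 lower with a median of 0.48, beside 6.09% and 11.6% of all genes there. In the middle tertile 9 of 57 were higher and 3 lower with a median of 0.36, beside 10.1% and 10.7%. In the GC-rich tertile 11 of 51 were higher and 2 lower with a median of 0.35, beside 11.6% and 9.6%. All genes in these GC tertiles had medians of -0.06, 0.01 and 0.07, from poor to rich.

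**Figure D5:**
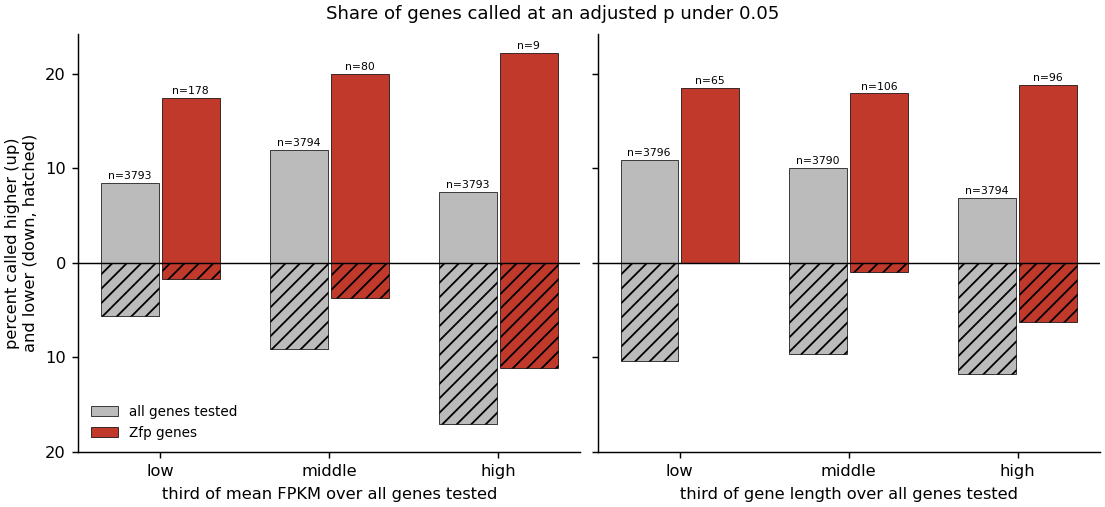
Percent of genes called higher (bars upwards) and lower (hatched bars downwards), for all genes tested (grey) and the Zfp members (red), in tertiles of mean FPKM (left) and of gene length (right) defined over all genes tested, with the number of genes above each bar. The red upward bars exceed the grey ones in every tertile, and the high FPKM tertile holds 9 members.

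The corepressor genes through which KRAB proteins act were called about as often as other genes. Of the 25 genes listed, all of which were tested, 2 were higher and 2 lower, or 8% each way beside 9.27% and 10.6% of all genes tested. The log2 fold change was above 0 for 15 of them, and the median was 0.09. Trim28, the protein that the KRAB box binds, measured 36.8 ± 2.75 CPM in the deficient and 33.0 ± 5.95 CPM in the wild-type group, a log2 difference of 0.16 (adjusted p = 0.509). Setdb1, the methyltransferase that Trim28 recruits, differed by 0.10 (adjusted p = 0.73). Hdac2, a histone deacetylase, rose by 0.82 (adjusted p = 0.0234), but not without deficient library 1 or wild-type library 1 or 3 (adjusted p = 0.0533 to 0.0591). Cbx5, the heterochromatin protein HP1 alpha, rose by 0.83 (adjusted p = 0.0281), but not without deficient library 1 or 3 or wild-type library 3 or 4 (adjusted p = 0.0571 to 0.086).

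Daxx and Resf1 were the corepressor genes that fell. Daxx, a histone chaperone, measured 28.7, 61.6, 32.6 and 61.4 CPM against 109, 71.2, 95.4 and 86.0 CPM, with no overlap. Its log2 fold change was -0.97 (SE 0.26, adjusted p = 0.0236), and the call was lost without deficient library 3 or wild-type library 3 (adjusted p = 0.0664 and 0.064). Resf1, which supports retroelement silencing, measured -0.53 (SE 0.17, adjusted p = 0.0498) and passed in 1 of the 8 fits with a library left out (adjusted p up to 0.118).

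Other C2H2 families with the same read threshold are given as counts, and their difference from the Zfp members was not tested. Of 16 Zscan and Zkscan genes, 5 were higher (Zscan22, Zscan29, Zkscan7, Zscan21 and Zkscan3), 13 were above 0 and the median was 0.76. Of 38 Zbtb genes, 6 were higher and 3 lower, with a median of 0.07. Of 21 Klf and Sp genes, 1 was higher (Klf15) and 3 lower (Klf7, Klf12 and Klf6), with a median of -0.37. The shares higher were 31.2%, 15.8% and 4.76% in this order of families, beside 9.27% of all genes tested. For Zbtb and for Klf and Sp, 7.89% and 14.3% were lower, near the 10.6% of all genes. The genes in brackets are named after their values were seen.

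P2rx4 lies on chromosome 5 with 16 members. The nearest, Zfp664 at 2.09 Mb, measured 0.63 (adjusted p = 0.0438), lost on omission of deficient library 2 or 3 or any of the 4 wild-type libraries (adjusted p = 0.0667 to 0.116). The next, Zfp11 at 6.89 Mb, measured 0.86 (adjusted p = 0.254), and the others lay 12.59 Mb or more away. All 16 members on chromosome 5 were tested. Of these, 3 were higher (Zfp664, Zfp316 at 20.39 Mb and Zfp512 at 91.24 Mb) and 1 was lower (Zfp326 at 16.82 Mb). On chromosome 7, 14 of 62 tested members were higher and 1 lower, and on chromosome 17, 6 of 40 were higher and 2 lower. Over all genes tested, 9.27% were higher and 10.6% lower. The part of a position near P2rx4 in these values was not tested.

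Paralogous sequence limits how well single members can be told apart. Cut into words of 75 bases from GENCODE M21 transcripts, 61 of the 273 members shared 5% or more of their words with other genes and 32 shared 20% or more. By annotated position, 39 overlap another gene. Among the 56 called members, 6 share 20% or more (Zfp970, Zfp617, Zfp93, Zfp825, Zfp874b and Zfp865) and 9 overlap another gene (Zfp950, Zfp219, Zfp553, Zfp750, Zfp687, Zfp866, Zfp865, Zfp617 and Zfp961), so that their counts are uncertain. Restricted to the 203 tested members with neither, 36 were higher and 7 lower, beside 9.27% and 10.6% of all genes tested.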

How the data were processed

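Per the labels' protocols, liver RNA was extracted with Trizol, selected for poly-A, copied with random primers and sequenced on an Illumina NovaSeq. The deposited table holds, per the file headers, raw read counts and FPKM (counts per gene length and library total, computed by the authors) for each gene and library. FPKM recomputed from the counts were within 7e-05% of the deposited values. The submitters' processing notes name cutadapt and HISAT2 2.0.5. Not given in the sources used here are the build, the annotation, the program that counted reads and whether it used strand, so table coordinates are printed as listed, and overlapping or antisense genes cannot be separated.

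One edgeR 4.0.16 quasi-likelihood fit (R 4.3.3) was run over the whole table of counts, with TMM scaling, the default expression filter, no covariate and Benjamini-Hochberg adjustment over 11380 genes at a threshold of 0.05. SE is the log2 fold change divided by the square root of F. CPM are TMM-scaled. Groups came from the genotype in the labels. The fit was tested on simulated data. The members and gene lists were chosen with earlier results of these data known, so no p was computed over the members.

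Named genes were P2rx4, the 12 largest rises and up to 12 falls among called members without overlap, the 5 members highest in FPKM, those nearest the read threshold or reaching it through one group, the member with the smallest p in each cluster of 4 or more, up to 4 corepressor genes, and called members with a listed role. Others were chosen after their values were seen. Finger and KRAB patterns and shared sequence came from GENCODE M21, promoters from RefSeq.

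Alternatives were library size alone, DESeq2 1.42.0, limma-voom (limma 3.58.1), limma on log2(FPKM + 1) and log2(FPKM + 0.1) for genes at 0.5 FPKM or more in 4 libraries, other filters (none, or 1 CPM in 4 libraries), robust empirical Bayes, removal of length or GC trends, a replicate block, other read thresholds and cluster distances, and each library left out.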

Additional observations from a re-analysis of the deposited data

Results flagged for a closer look

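Of 96 groups of 4 libraries checked for a single library far from the other 3, 5 held one, and chance alone gives about 1 in 20. Zfp94 was highest in wild-type library 4, at 0.513 CPM. Zfp706 was lowest in deficient library 3, at 30.7 CPM. Zfp626 was highest in deficient library 1, at 2.59 CPM. Zfp563 was lowest in wild-type library 2, at 0.562 CPM. The corepressor gene Resf1 was highest in wild-type library 1, at 29.1 CPM.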

How the results depend on the processing

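Members higher and lower numbered 49 and 7 in the edgeR fit reported and 77 and 1 with library size alone, whose member median of 0.59 stood beside an all-gene median of 0.14. DESeq2 gave 66 and 10. Lower members numbered 1 in limma on log2(FPKM + 1) and on log2(FPKM + 0.1), each with 53 higher of 173 tested, and 4 without an expression filter. The member median was 0.51 with the GC trend removed, 0.27 in limma on log2(FPKM + 1), where the added 1 compresses low values, and 0.36 for members with 10 reads in all 8 libraries. Leaving out 1 library gave 14 to 41 higher and 0 to 8 lower members, and the median stayed at 0.40 to 0.49. The share higher was 5.15% to 15.2% of members and 3.91% to 9.32% of all genes tested. The share lower was 0% to 2.97% of members and 4.54% to 11.3% of all genes tested. KRAB corepressor genes higher and lower, 2 and 2 in the fit reported, were 4 and 1 with library size alone and in both limma fits on FPKM. Only 1 was lower with the GC or length trend removed or without a filter. Leaving out 1 library gave 0 to 2 in each direction (edgeR, with 3 to 5 higher and 2 to 4 lower at an unadjusted p under 0.05). The cause of these shifts was not tested beyond what is stated. Called members kept their direction in every alternative, and clusters numbered 18 at a distance of 250 kb and 22 at 1000 kb, against 19.

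Libraries with the same number did not deviate together over all genes tested (correlations of 0.132, -0.114, 0.0737 and -0.105). These weak correlations cannot exclude that the numbers pair the samples, so fits with the number as a block are given. With the replicate block 27 members were higher (11 KRAB members and 16 others, 14 within clusters and 13 outside) and 3 lower, and 1 corepressor gene was higher and 1 lower. With the replicate block and the GC trend removed these were 32 and 4 members, with a median of 0.52, and 1 lower corepressor gene, and the 32 higher members were 14 KRAB members and 18 others, 17 within clusters and 15 outside. Most members lie under 1 FPKM, and the part of depth in which of them were called was not tested. Counts are of PCR-amplified reads, and the spread over 4 libraries sets the precision.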
